A study of Mus musculus with 12 samples.

Results

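The genes described here carry signals from the tumour necrosis factor (TNF) and Toll-like receptors to the transcription factor NF-kB, and include its inhibitors, feedback genes and adhesion targets. The 39 genes were taken from a list that was fixed with earlier results of these data known. Every probe set that the array annotation gives to a listed gene was collected. Of the 39, 34 had such a probe set (70 probe sets), and 31 were tested among 10996 genes in all. Nfkb1, Chuk, Traf3, Ripk1 and Ripk2 were not analysed here, and Rel, Sele and Tnf fell below the filter on low values, which kept a probe set that lay above the array's own median on at least 3 of the 12 arrays.

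The arrays measured total RNA of mouse lung, 1 array per sample, from animals aged 8 to 12 weeks. There were 3 wild type samples labelled SB, 3 wild type samples after VILI (ventilator-induced lung injury, at 30 ml/kg and 65 breaths/min over 4 hours), 3 knockout samples labelled SB and 3 knockout samples after VILI. The knockout is titled GADD45-/-, the series title names Gadd45a, SB is not spelled out, and the design text calls the wild type SB group the control and gives each group 3 mice. The sources used here do not say how the knockout allele was made, or the strain and sex of the mice. The targeted gene read 8.62 to 9.51 in wild type SB, 9.75 to 10.33 in wild type VILI, 4.58 to 6.15 in knockout SB and 5.36 to 6.02 in knockout VILI, so every knockout array lay below every wild type array. Whether its probes lie inside the deleted stretch is not known here. Markers of lung epithelium had a mean log2 level of 12.5 to 12.9 on all 12 arrays. Values are log2 expression, a step of 1 is a factor of 2, and p-values measure the spread between these samples.

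NF-kB proteins wait in the cytoplasm, held by IkB inhibitors. Ligands of TNF and Toll-like receptors start a relay of adaptor proteins and ubiquitin ligases that switches on the IkB kinase complex, the IkB proteins are destroyed, and the freed subunits enter the nucleus. Among the first genes they switch on are IkB proteins and other brakes on the same pathway, and in the lung endothelium the adhesion molecules that let neutrophils leave the blood.

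VILI moved a limited set of these genes. In wild type lungs 1 of the 31 tested members rose, the adaptor Myd88, and 0 fell. In knockout lungs 6 rose (Myd88, Bcl3, Nfkbiz, Tnfaip2, Birc3 and Tnfrsf1b) and 0 fell. Averaged over both genotypes, 10 rose (those 6 with Cd14, Selp, Zc3h12a and Rela) and 1 fell, the inhibitor Nfkbia. A gene was called when limma's adjusted p lay under 0.05 over the 10996 genes. By that rule 1.36% of all genes were called higher and 1.28% lower in wild type, 2.76% higher and 1.70% lower in knockout, and 8.42% higher and 9.39% lower on average. Each gene was read through 1 probe set. With the mean of its kept probe sets, Nfkbia was also called lower in knockout (-0.41, adjusted p = 0.0309 by limma). Between knockout and wild type 0 members passed in either condition, and 0 passed the test of a genotype difference in the VILI response. No member's response was therefore shown to depend on genotype. The calls within a genotype depend on which arrays share the estimate of spread: with only the 6 wild type arrays in the fit 5 members rose in wild type (Myd88, Bcl3, Nfkbiz, Tnfaip2 and Tnfrsf1b), and with only the 6 knockout arrays 0 were called in knockout (adjusted p from 0.0689 to 0.198 for the 6 genes).

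Array by array, most of the same genes separated. Each VILI array lay above each SB array for 8 members in wild type (11.6% of all genes) and for 14 in knockout (12.9% of all genes). Each lay below for 1 member in wild type, Nfkb2 (20.0% of all genes), and for 1 in knockout, Nfkbia (10.6% of all genes). With the 6 VILI arrays set against the 6 SB arrays, 6 members did not overlap upward (4.26% of all genes) and 0 downward (4.09% of all genes). Those 6 were Myd88, Bcl3, Nfkbiz, Tnfaip2, Birc3 and Tnfrsf1b. These counts read 1 probe set per gene, and another Nfkbia set lay lower on every VILI array than on every SB array. The median change of the 31 members was 0.21 in wild type, 0.41 in knockout and 0.31 on average, beside -0.05, 0.00 and -0.03 for all genes tested.

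**Figure D1:**
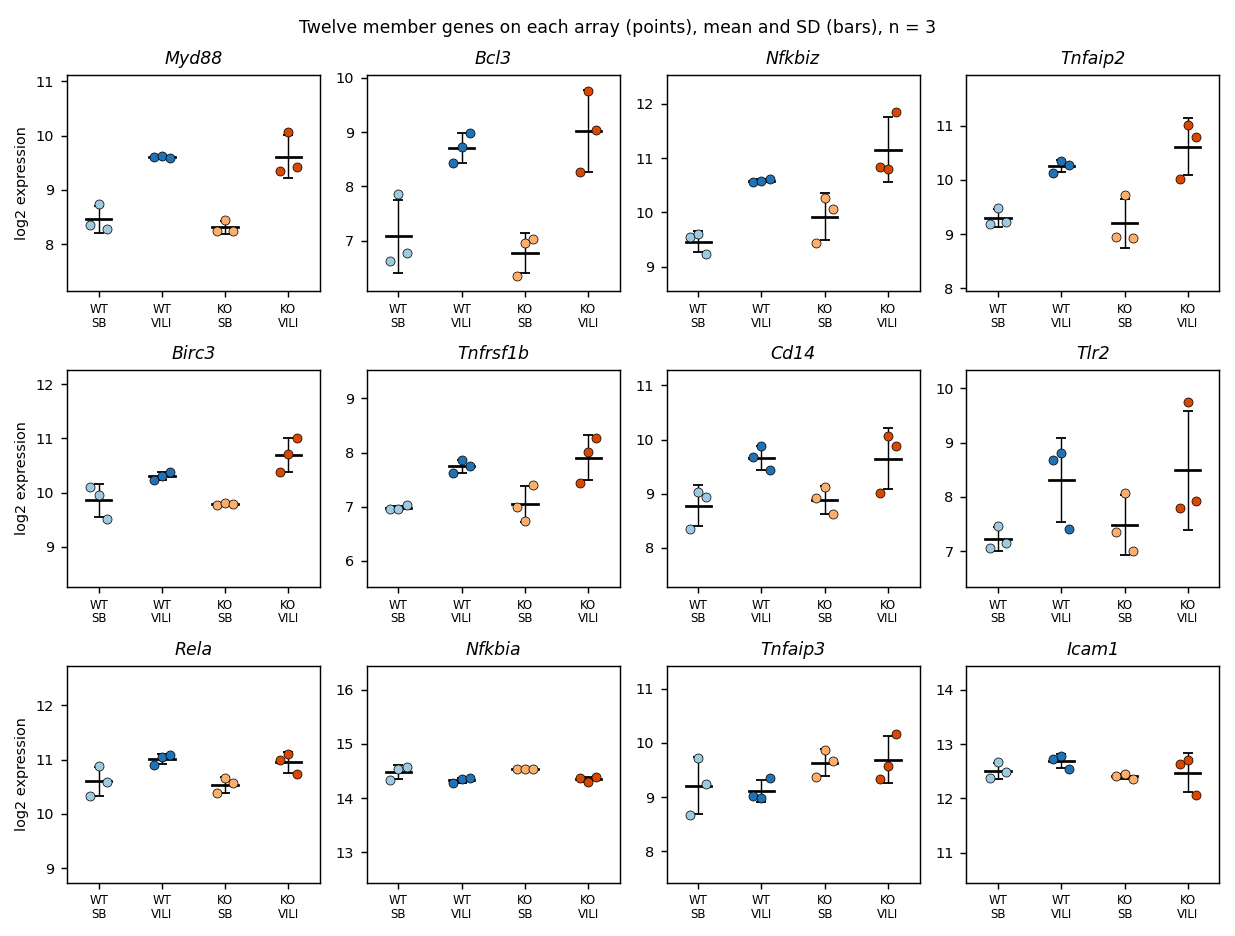
Log2 expression (vertical axis, each panel on its own range) of 12 members on every array, by genotype (WT, wild type; KO, knockout) and treatment (horizontal axis); points are arrays and bars the mean and SD, n = 3. Myd88, Bcl3, Nfkbiz, Tnfaip2, Birc3 and Tnfrsf1b have no VILI array as low as any SB array, while VILI and SB arrays overlap for Tnfaip3 and Icam1.

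Promoter sequence gives a first view of how the members differ. RefSeq windows of GRCm38.p6 that hold the 250 bases before the start of transcription matched 30 of the 39 members. The decameric kappaB consensus, searched by that name on both strands with overlapping matches allowed, was found in windows of 8 of these 30 genes: Nfkb2, Rel, Nfkbia, Nfkbie, Tnfaip3, Tnip1, Traf3 and Tlr2. Among all 27025 genes with a window, 4.46% held it. The looser motif GGGNNNNNCC, searched in the same way and including every consensus match, was present in 25 of the 30 members and in 48.7% of all genes. The 5 windows printed here, each read 5′ to 3′ on the gene's own strand, were chosen as examples. They show 3 classical feedback genes with the consensus and 2 members that rose after VILI without it. Capitals mark consensus matches on either strand. Nfkbia lies at chr12:55492648-55492897, Tnfaip3 (the first of its windows) at chr10:19015411-19015660, Tnip1 at chr11:54962941-54963190, Bcl3 at chr7:19822756-19823005 and Myd88 at chr9:119340019-119340268, all on the minus strand.
Nfkbia: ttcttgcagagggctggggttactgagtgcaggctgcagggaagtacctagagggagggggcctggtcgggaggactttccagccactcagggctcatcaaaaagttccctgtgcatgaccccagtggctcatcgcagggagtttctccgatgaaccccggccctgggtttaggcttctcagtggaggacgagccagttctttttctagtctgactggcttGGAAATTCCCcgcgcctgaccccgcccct
Tnfaip3: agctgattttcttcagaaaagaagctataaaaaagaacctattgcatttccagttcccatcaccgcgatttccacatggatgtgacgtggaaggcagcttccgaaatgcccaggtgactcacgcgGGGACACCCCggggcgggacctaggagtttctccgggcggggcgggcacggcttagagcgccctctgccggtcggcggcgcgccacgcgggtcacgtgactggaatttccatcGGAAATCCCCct
Tnip1: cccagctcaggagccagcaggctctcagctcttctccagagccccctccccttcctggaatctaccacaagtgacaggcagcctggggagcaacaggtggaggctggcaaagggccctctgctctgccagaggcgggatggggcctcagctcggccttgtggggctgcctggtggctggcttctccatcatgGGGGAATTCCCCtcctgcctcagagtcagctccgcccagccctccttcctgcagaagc
Bcl3: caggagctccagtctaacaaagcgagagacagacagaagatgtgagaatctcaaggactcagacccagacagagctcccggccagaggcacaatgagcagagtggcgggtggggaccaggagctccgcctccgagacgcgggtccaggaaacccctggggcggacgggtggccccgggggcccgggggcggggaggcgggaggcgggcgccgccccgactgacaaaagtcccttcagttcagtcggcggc
Myd88: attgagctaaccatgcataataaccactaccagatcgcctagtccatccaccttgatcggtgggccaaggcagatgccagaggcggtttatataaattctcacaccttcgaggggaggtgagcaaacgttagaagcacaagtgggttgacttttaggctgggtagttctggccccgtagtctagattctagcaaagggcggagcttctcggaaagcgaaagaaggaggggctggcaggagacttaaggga
The match in Nfkbia spans bases -29 to -20 from the start. Tnfaip3 has matches at -125 to -116 and at -12 to -3, and Tnip1 has overlapping ones between -58 and -47. The Bcl3 window holds the looser motif and no consensus match, and the Myd88 window holds neither. Of the 10 members that rose on average, 8 have a window (Rela, Bcl3, Tnfaip2, Birc3, Selp, Tnfrsf1b, Myd88 and Zc3h12a), and 0 of those windows hold the consensus. The share over all genes is 4.46%, so 0 of 8 does not set the risen members apart. A match describes letters and not binding, and its lack says only that these letters are not in this window.

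Ligand and receptors come first in the relay. Tnf, the cytokine that names the family, lay near the lower end of the scale, at 2.26 to 2.44 on 11 arrays and at 3.21 on knockout VILI replicate 2, and was not tested. Tnfrsf1b, the TNF receptor found mainly on leukocytes and endothelium, read 6.96, 6.96 and 7.03 in wild type SB and 7.63, 7.86 and 7.74 in wild type VILI. It read 7.00, 6.74 and 7.40 in knockout SB and 7.44, 8.02 and 8.26 in knockout VILI. The groups did not overlap in either genotype. Tnfrsf1b rose in knockout by 0.86 (SE 0.21, adjusted p = 0.0463) and on average by 0.81 (SE 0.15, adjusted p = 0.00589), while its wild type change of 0.76 (SE 0.21) had an adjusted p of 0.0818. Its knockout call was kept in 2 of 12 fits that each left out 1 array and was lost under either rescaling of the arrays (adjusted p = 0.0550 with arrays centred and 0.0556 after quantile normalization). Tnfrsf1a, the TNF receptor carried by most cells, was at -0.17 in wild type and 0.09 in knockout. Cd40, a costimulatory receptor of B cells and antigen-presenting cells, was at -0.05 and 0.34. Its other kept probe sets were at -0.28 and 0.10 in wild type and 0.14 and -0.04 in knockout, so its sign depends on the probe set. Neither Tnfrsf1a nor Cd40 passed the test.

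Of the receptors for bacterial products, Cd14 passed on average. Cd14, which hands lipopolysaccharide to the Tlr4 complex, read 8.35, 9.04 and 8.94 in wild type SB and 9.67, 9.89 and 9.44 in wild type VILI. It read 8.92, 9.12 and 8.62 in knockout SB and 9.01, 10.06 and 9.88 in knockout VILI. Replicate 1 of knockout VILI lay among the SB arrays, and the rest of the VILI arrays lay above all of them. Cd14 rose on average by 0.83 (SE 0.19, adjusted p = 0.0156) and passed in neither genotype alone (0.89, adjusted p = 0.0986 in wild type, and 0.76, adjusted p = 0.131 in knockout). Tlr2, the receptor for bacterial lipopeptides, read 7.06, 7.47 and 7.14 in wild type SB and 8.69, 8.82 and 7.42 in wild type VILI. It read 7.36, 8.08 and 7.00 in knockout SB and 7.79, 9.74 and 7.93 in knockout VILI. Replicate 3 of wild type VILI and replicates 1 and 3 of knockout VILI lay within the range of their SB group, and the average change of 1.05 (SE 0.36) was not called (adjusted p = 0.0651). Tlr4, the lipopolysaccharide receptor, read 7.43, 6.20 and 7.34 in wild type SB, 7.87, 7.96 and 7.32 in wild type VILI, 7.53, 6.57 and 7.31 in knockout SB and 7.69, 8.24 and 7.73 in knockout VILI. Replicate 2 was the low array of both SB groups. The gene was at 0.74 on average (SE 0.25, adjusted p = 0.0580) through the probe set with the highest mean, and its other kept probe sets gave 0.77 (adjusted p = 0.0407) and 0.91 (adjusted p = 0.0214) when each probe set was tested on its own.

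Among adaptors and ubiquitin ligases, Myd88 was the 1 that passed. It links all Toll-like receptors but one, and the interleukin-1 receptor, to the kinases below them. Myd88 read 8.36, 8.74 and 8.28 in wild type SB and 9.61, 9.62 and 9.58 in wild type VILI. It read 8.25, 8.45 and 8.24 in knockout SB and 9.34, 10.06 and 9.42 in knockout VILI. The 6 VILI arrays all lay above the 6 SB arrays, and the wild type VILI arrays lay close together. Myd88 rose 2.21-fold in wild type (1.14, SE 0.19, adjusted p = 0.0165) and 2.46-fold in knockout (1.30, SE 0.19, adjusted p = 0.00688). The average of 1.22 (SE 0.13, adjusted p = 0.000412) had the lowest adjusted p of any member. The wild type call was lost without wild type SB replicate 3 (adjusted p = 0.0800), wild type VILI replicate 1 (0.0580) or wild type VILI replicate 2 (0.0810), while the knockout call was kept in all 12 fits that left out 1 array. Traf2 and Birc2, which act at TNF receptors, and Irak2, a kinase-like partner of Myd88, were at 0.07, -0.07 and 0.33 in wild type and 0.26, 0.25 and 0.15 in knockout, and none passed.

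The IkB kinase complex and the kinase upstream of its noncanonical branch gave no call. Ikbkb, the catalytic subunit, was at 0.16 in wild type and 0.27 in knockout, and Ikbkg, the regulatory subunit, at 0.16 and 0.46. The other kept probe sets of Ikbkb were at 0.17 and 0.27 in wild type and -0.07 and 0.41 in knockout. Those of Ikbkg were at 0.03 and 0.39 in wild type and 0.17 and 0.17 in knockout, so these readings depend on the probe set. Map3k14, the kinase that drives processing of Nfkb2, was at 0.04 and 0.00, through a probe set that was nearly flat on all 12 arrays (4.90 to 5.17). Its other probe set, which lay above the array median on 2 arrays and was not tested, read 3.33 to 3.38 in wild type SB, 3.82 to 4.07 in wild type VILI, 3.78 to 3.82 in knockout SB and 4.5 to 5.93 in knockout VILI. That set separated VILI from SB in both genotypes, so the flat reading of Map3k14 depends on the probe set.

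Of the DNA-binding subunits, Rela was the 1 that rose. Rela, the main transactivating subunit, read 10.34, 10.88 and 10.59 in wild type SB and 10.91, 11.04 and 11.09 in wild type VILI. It read 10.38, 10.67 and 10.57 in knockout SB and 11.00, 11.11 and 10.74 in knockout VILI. VILI and SB arrays did not overlap within a genotype, but wild type SB replicate 2 lay above knockout VILI replicate 3. Rela rose on average by 0.41 (SE 0.10, adjusted p = 0.0202), the same size in each genotype (0.41 and 0.41), neither of which passed alone. That call was lost without wild type VILI replicate 2 (adjusted p = 0.0509) or knockout VILI replicate 2 (0.0530). Relb, the subunit of the noncanonical branch, was at 0.39 in wild type and 0.85 in knockout (average 0.62, SE 0.21, adjusted p = 0.0633). Nfkb2, its partner, was at -0.51 and -0.28, yet its other kept probe set was at 0.26 on average against -0.39 for the set that stands for the gene, so the sign depends on the probe set. Rel, found mainly in lymphoid and myeloid cells, ran from 2.65 to 5.14, with its highest value on knockout VILI replicate 3.

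Of the 3 IkB inhibitors, 1 passed the test, and it fell. Nfkbia, the inhibitor that NF-kB resynthesizes soon after activation, read 14.33, 14.53 and 14.58 in wild type SB and 14.27, 14.35 and 14.37 in wild type VILI. It read 14.53, 14.54 and 14.54 in knockout SB and 14.37, 14.29 and 14.38 in knockout VILI. Through this probe set the groups separated in knockout and overlapped in wild type, which depends on the set. Another Nfkbia set read 13.77 to 13.93 in wild type SB and 13.41 to 13.55 in wild type VILI. It read 13.77 to 14.03 in knockout SB and 13.39 to 13.55 in knockout VILI. Every VILI array of that set lay below every SB array. Nfkbia fell by 0.17 on average (SE 0.05, adjusted p = 0.0350), a change kept in 4 of 12 fits that left out 1 array. All 5 of its probe sets were below 0 on average, from -0.58 to -0.17, and 4 of the 5 passed when each probe set was tested on its own. The lowest adjusted p of these averages belonged to a set at -0.41 (SE 0.06, adjusted p = 0.00234). In knockout alone that set also passed on its own (-0.46, adjusted p = 0.0201), as did another (-0.51, adjusted p = 0.0423). The set that stands for the gene has the highest readings, near the top of the scale, and the smallest change of the 5. Nfkbib, a constitutive inhibitor, was at 0.14 in wild type and 0.26 in knockout. Nfkbie, an inducible one, was at 0.21 and 0.68, without a call.

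**Figure D2:**
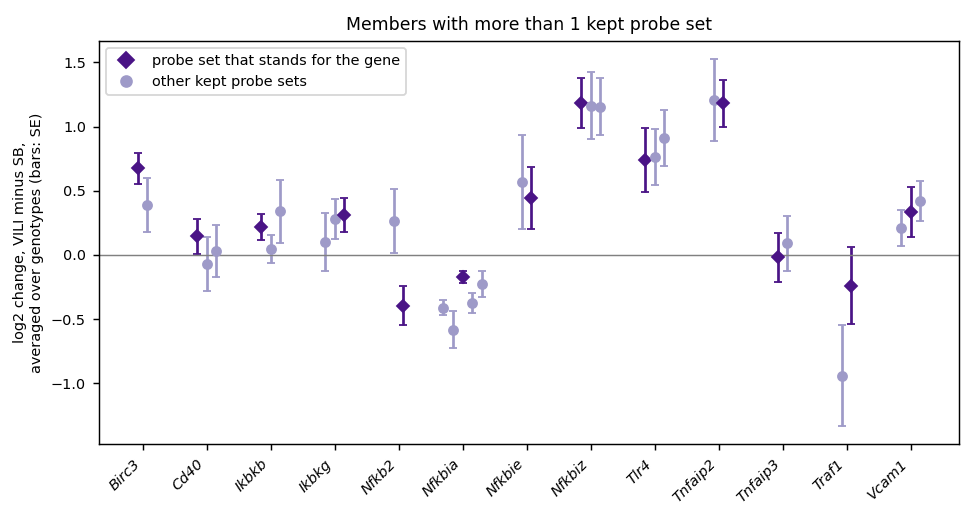
Log2 change, VILI minus SB averaged over genotypes (vertical axis; bars, SE), for every kept probe set of the members that have more than 1 (horizontal axis); diamonds mark the set that stands for the gene. All 5 Nfkbia sets lie below 0 (-0.58 to -0.17), the 3 Nfkbiz sets lie between 1.16 and 1.18, and the Nfkb2 sets lie on opposite sides of 0.

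The nuclear IkB proteins rose in knockout and on average. These relatives of the inhibitors act in the nucleus with NF-kB subunits instead of holding them back in the cytoplasm. Bcl3, which pairs with subunits that lack a transactivation domain, read 6.62, 7.86 and 6.77 in wild type SB and 8.43, 8.72 and 8.99 in wild type VILI. It read 6.35, 6.96 and 7.02 in knockout SB and 8.27, 9.77 and 9.03 in knockout VILI. Wild type SB replicate 2 was the highest of the SB arrays and still lay below each VILI array. Bcl3 rose 4.73-fold in knockout (2.24, SE 0.39, adjusted p = 0.0139) and by 1.94 on average (SE 0.28, adjusted p = 0.00172). Its wild type change of 1.63 (SE 0.39) had an adjusted p of 0.0517, and the difference between the genotypes, 0.61 with a 95% interval from -0.60 to 1.83, was not called. Nfkbiz, a cofactor for secondary targets such as the lipocalin gene Lcn2, read 9.55, 9.59 and 9.24 in wild type SB and 10.57, 10.57 and 10.62 in wild type VILI. It read 9.43, 10.27 and 10.05 in knockout SB and 10.83, 10.80 and 11.85 in knockout VILI. The wild type VILI arrays were close together, and replicate 3 stood well above the rest of knockout VILI. Nfkbiz rose in knockout by 1.24 (SE 0.27, adjusted p = 0.0284) and on average by 1.18 (SE 0.19, adjusted p = 0.00305). In wild type it was at 1.13 with an adjusted p of 0.0517. Its 3 probe sets gave 1.16 to 1.18 on average.

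Feedback regulators and other induced genes were divided. Tnfaip2, a TNF-inducible gene of endothelial and myeloid cells, read 9.19, 9.48 and 9.22 in wild type SB and 10.13, 10.35 and 10.27 in wild type VILI. It read 8.96, 9.72 and 8.92 in knockout SB and 10.02, 11.02 and 10.79 in knockout VILI. No VILI array reached down to an SB array. Tnfaip2 rose in knockout by 1.41 (SE 0.26, adjusted p = 0.0160) and on average by 1.18 (SE 0.18, adjusted p = 0.00245), and its wild type change of 0.95 had an adjusted p of 0.0744. Birc3, a ubiquitin ligase of the inhibitor-of-apoptosis family, read 10.10, 9.96 and 9.51 in wild type SB and 10.23, 10.30 and 10.38 in wild type VILI. It read 9.78, 9.81 and 9.79 in knockout SB and 10.37, 10.72 and 11.01 in knockout VILI. The knockout SB arrays lay close together, and the knockout VILI arrays lay clear of them. Birc3 rose in knockout by 0.91 (SE 0.17, adjusted p = 0.0183) and on average by 0.68 (SE 0.12, adjusted p = 0.00479). Its wild type change was 0.44 (adjusted p = 0.169), and its second kept probe set was at 0.39 on average (adjusted p = 0.238).

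Zc3h12a, an RNase that destroys cytokine transcripts, read 5.07, 5.79 and 5.01 in wild type SB and 5.75, 5.74 and 5.98 in wild type VILI. It read 4.81, 5.56 and 5.75 in knockout SB and 5.88, 6.26 and 6.51 in knockout VILI. Only the knockout groups separated, and the gene rose on average by 0.69 (SE 0.20, adjusted p = 0.0354), a call kept in 4 of 12 fits that left out 1 array and lost after quantile normalization (adjusted p = 0.0548). Tnfaip3, the ubiquitin-editing enzyme that shuts the pathway down, showed no such change. It read 8.68, 9.72 and 9.23 in wild type SB, 9.01, 8.99 and 9.35 in wild type VILI, 9.37, 9.86 and 9.67 in knockout SB and 9.33, 9.58 and 10.17 in knockout VILI. VILI and SB arrays overlapped in both genotypes. Its average change of -0.02 (SE 0.19, adjusted p = 0.956) had a 95% interval from -0.44 to 0.40, and its second probe set was at 0.09. Tnip1, its binding partner, was at 0.03 in wild type and 0.27 in knockout. Irak3, which blocks signalling from Myd88, was at -0.16 and 0.64. Traf1, a TNF-induced adaptor, was at -0.61 and 0.13, and its other kept probe set at -0.94 in both genotypes, so its knockout sign depends on the probe set. None of these passed.

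The adhesion targets were measured in whole lung, where fewer cells of a type and less RNA per cell cannot be told apart. Selp, the P-selectin of endothelium and platelets, read 5.53, 5.55 and 5.57 in wild type SB and 5.52, 6.26 and 6.80 in wild type VILI. It read 5.44, 5.36 and 4.96 in knockout SB and 5.63, 7.18 and 6.78 in knockout VILI. In both genotypes replicate 1 after VILI stayed near the SB level and the other replicates lay above it. Selp rose on average by 0.96 (SE 0.27, adjusted p = 0.0327), a call kept in 3 of 12 fits that left out 1 array. Icam1, the endothelial and epithelial ligand of neutrophil integrins, read 12.38, 12.67 and 12.48 in wild type SB, 12.73, 12.78 and 12.55 in wild type VILI, 12.40, 12.45 and 12.36 in knockout SB and 12.64, 12.71 and 12.07 in knockout VILI. Replicate 3 was the lowest array of both VILI groups, and in knockout it lay below all SB arrays. The average change of Icam1 was 0.12 (SE 0.11, adjusted p = 0.449), with a 95% interval from -0.11 to 0.36. Vcam1, the ligand for lymphocytes and monocytes, was at 0.42 in wild type and 0.24 in knockout. Its other kept probe sets were at 0.83 and 0.48 in wild type, where their VILI arrays lay above all SB arrays, and at 0.01 and -0.07 in knockout. None passed, and the wild type size and knockout sign depend on the probe set. Sele, the E-selectin of activated endothelium, read 2.42 to 2.51 on all 12 arrays, above the array median on 0 of them, and was not tested.

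**Figure D3:**
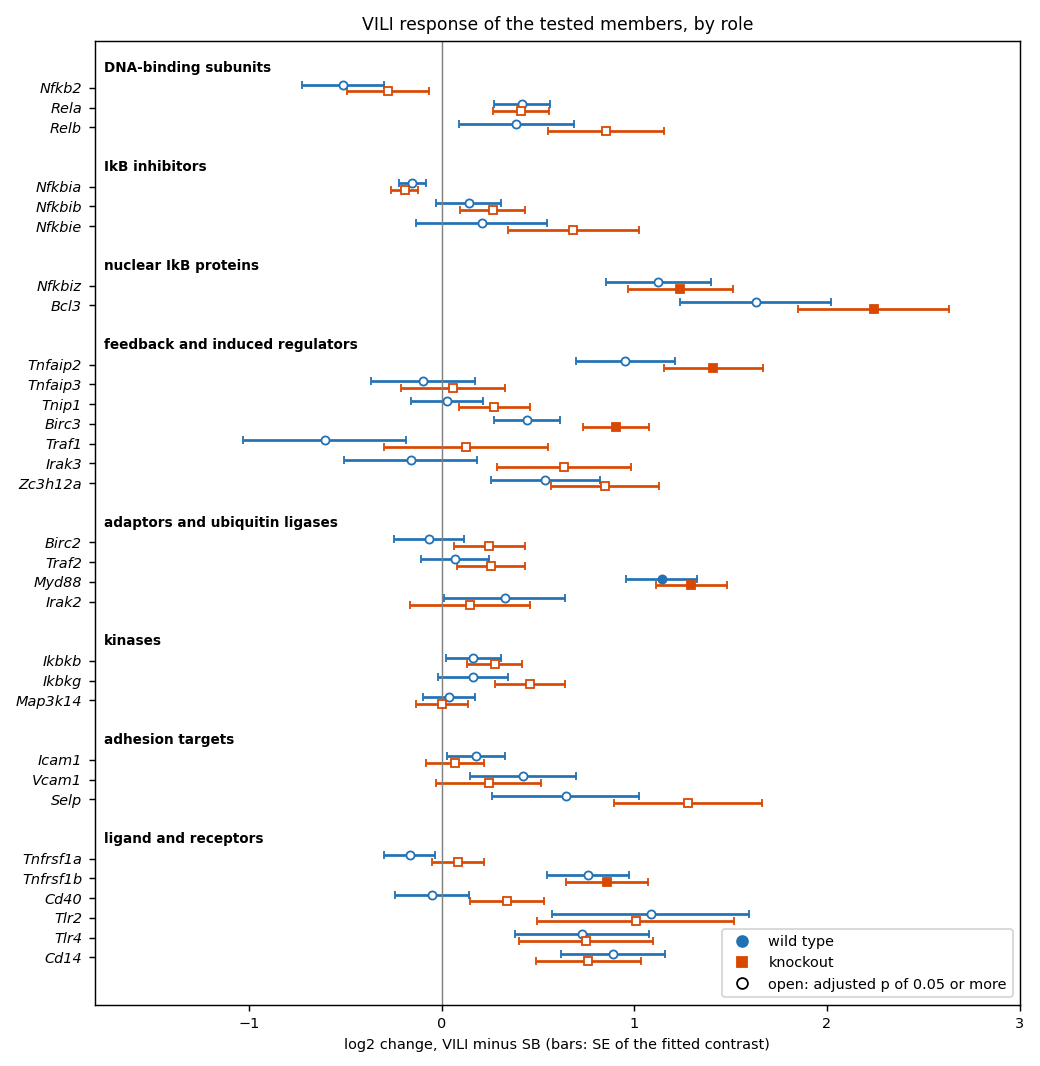
Log2 change, VILI minus SB (horizontal axis; bars, SE of the fitted contrast), of the 31 tested members, grouped by role (vertical axis), in wild type (circles) and knockout (squares); filled symbols passed the test. Myd88 is filled in both genotypes, and Bcl3, Nfkbiz, Tnfaip2, Birc3 and Tnfrsf1b in knockout; every other symbol is open.

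The contrast between inducible brakes and standing parts of the pathway was then drawn with 2 lists. The feedback list held 11 genes, Nfkbia, Nfkbie, Nfkbiz, Bcl3, Tnfaip2, Tnfaip3, Tnip1, Birc3, Traf1, Irak3 and Zc3h12a. The core list held 13 genes, of which Rela, Nfkbib, Ikbkb, Ikbkg, Map3k14, Traf2, Birc2, Myd88, Tnfrsf1a and Tlr4 were tested. Of the 11 feedback genes, 0 were called in wild type, 4 rose in knockout, and on average 5 rose and 1 fell. Of the 10 core parts, 1 rose in wild type, 1 in knockout (Myd88 each time) and 2 on average (Myd88 and Rela). Over all genes 1.36% were called higher in wild type and 2.76% in knockout. On average 8.42% of all genes were called higher and 9.39% lower. The median change of the feedback genes was 0.21 in wild type and 0.68 in knockout, and that of the core parts 0.15 and 0.27. The lists did not divide into induced and constant genes. Nfkbia, Nfkbie, Tnfaip3, Tnip1, Traf1, Irak3 and Zc3h12a were not called higher in either genotype, while the core adaptor Myd88 was called in both.

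Each array was also given the mean difference of a list's genes from their wild type SB means. For the feedback genes this was 0.30 to 0.40 in wild type VILI (0.36 ± 0.05, SD, n = 3), -0.04 to 0.22 in knockout SB (0.11 ± 0.14) and 0.50, 0.87 and 1.20 in knockout VILI (0.86 ± 0.35). For the core parts it was 0.18 to 0.33 in wild type VILI (0.26 ± 0.08), -0.14 to -0.01 in knockout SB (-0.06 ± 0.07) and 0.24, 0.50 and 0.30 in knockout VILI (0.34 ± 0.13). In wild type lungs both lists moved by a like amount, with the feedback genes 0.01 to 0.19 above the core parts on the VILI arrays and -0.11 to 0.15 on the SB arrays. In knockout VILI they were 0.26, 0.37 and 0.90 above, and in knockout SB -0.01 to 0.28. The widest gap belongs to knockout VILI replicate 3. With both knockout replicate 3 arrays left out, the median knockout change was 0.67 for feedback genes and 0.34 for core parts.

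**Figure D4:**
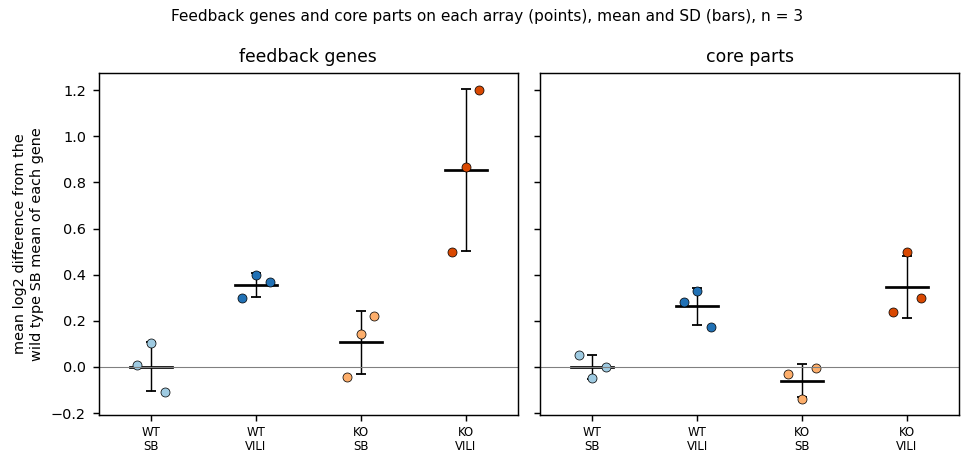
Mean log2 difference from the wild type SB mean of each gene (vertical axis) over the 11 feedback genes (left) and the 10 core parts (right) on every array, by group (horizontal axis); points are arrays and bars the mean and SD, n = 3. The feedback genes of knockout VILI spread from 0.50 to 1.20, and the core parts of all VILI arrays lie between 0.18 and 0.50.

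The genotypes were compared directly in each condition. In SB lungs 0 of 31 members passed (0.109% of all genes were called). At an unadjusted p under 0.05 by limma there were 0 members and 1113 of all 10996 genes. That count reads 1 probe set per gene. Some other kept sets did not overlap between the genotypes in SB, among them 1 of Ikbkb (7.34 to 7.57 in wild type, 7.77 to 8.02 in knockout). With each kept probe set tested, 0 members passed the adjusted threshold there. After VILI 0 of 31 passed (0.100% of all genes). At an unadjusted p under 0.05 there were 4 members (756 of all 10996 genes), all 4 higher in knockout. These were Irak3 (1.09, SE 0.35, unadjusted p = 0.00892, adjusted p = 0.513), Traf1 (1.07, SE 0.42, adjusted p = 0.691), Tnip1 (0.42, SE 0.18, adjusted p = 0.721) and Birc3 (0.40, SE 0.17, adjusted p = 0.711), named after their values were seen. The Traf1 difference belongs to 1 of its probe sets; the other had means of 5.03 in wild type VILI and 5.22 in knockout VILI. All of them belong to the feedback list, whose 11 genes were all above 0 in that contrast with a median of 0.40, beside -0.01 for all genes and 0.07 for the core parts. Of all 10996 genes, 5249 were above 0 there, as were 8 of the 10 core parts. The genes of a list were read on the same arrays, and no p was computed for a list. Without both knockout replicate 3 arrays the feedback median was 0.27. The test of the response itself, knockout minus wild type, called 0 members and 0% of all genes by limma, and at an unadjusted p under 0.05 it found 0 members and 288 genes in all. For Irak3 that difference was 0.80 with a 95% interval from -0.28 to 1.87, and for Birc3 0.46 with an interval from -0.07 to 0.99. The interval for Irak3 reaches past the size of most VILI responses among the members.

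The highest reading of most members fell on a pair of arrays. Of the 31 tested members, 12 were highest on knockout VILI replicate 2 (among them Bcl3, Tnfaip2, Myd88, Cd14, Tlr2, Tlr4, Selp and Rela) and 12 on knockout VILI replicate 3 (among them Nfkbiz, Birc3, Tnfrsf1b, Relb, Zc3h12a, Tnfaip3 and Traf1). Replicate 2 had the highest neutrophil marker level of all arrays, and replicate 3 the highest B cell and T and NK cell marker levels and the lowest endothelial level. Over 13 tested neutrophil markers the mean level was 6.41 to 6.72 in wild type SB and 8.48 to 9.27 in wild type VILI. In knockout it was 6.69 to 7.14 in SB and 8.58 to 10.1 after VILI. Of the 13, 9, 9 and 11 rose in wild type, in knockout and on average (1.36%, 2.76% and 8.42% of all genes). Over 6 tested B cell markers the difference from the wild type SB mean was 3.21 on knockout SB replicate 3 and 3.52 on knockout VILI replicate 3, and -1.05 to 0.76 on the other arrays. Over 5 tested T and NK cell markers that difference was -0.30 to 0.44 in wild type SB, -0.05 to 0.62 in wild type VILI, 0.70 to 1.49 in knockout SB and 0.53 to 2.19 in knockout VILI, with 2.19 on replicate 3. The feedback genes also had their highest mean on that array. Of 13 macrophage and monocyte markers, 0 rose in either genotype and 1 rose on average (8.42% of all genes). Of 17 endothelial markers 1 fell in wild type, 5 in knockout and 9 on average (1.28%, 1.70% and 9.39% of all genes). Their mean level went from 11.3 to 11.5 on the SB arrays to 10.7 to 11.1 on the VILI arrays. Leukocytes carry Myd88, Bcl3, Tnfrsf1b, Cd14, Tlr2 and Tlr4, and the part of these markers in the members' changes was not tested. With both knockout replicate 3 arrays left out, Myd88 was the 1 member still called in knockout (1.35, adjusted p = 0.0388), Bcl3 was at 2.36 (0.0674) and Nfkbiz at 0.96 (0.0752). In wild type that fit called 3 members, Myd88, Nfkbiz (adjusted p = 0.0193) and Tnfrsf1b (0.0337).

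**Figure D5:**
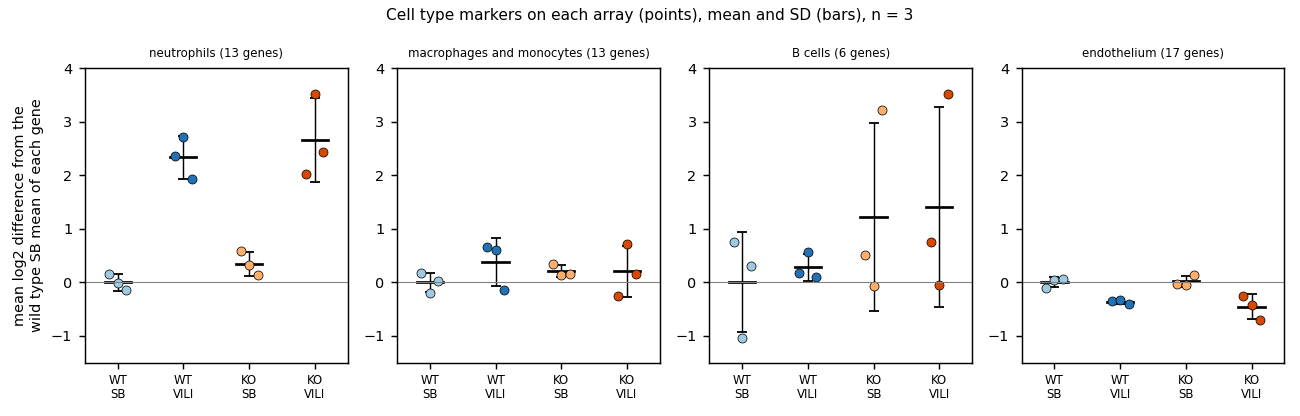
Mean log2 difference from the wild type SB mean of each gene (vertical axis) over markers of neutrophils (13 genes), macrophages and monocytes (13), B cells (6) and endothelium (17) on every array, by group (horizontal axis); points are arrays and bars the mean and SD, n = 3. Neutrophil markers are high on all VILI arrays, and B cell markers on both knockout replicate 3 arrays (3.21 and 3.52).

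Beyond the members, a list of 110 further genes of the same pathway was read from the same fit, and 81 of them were tested. In wild type 12 of the 81 rose and 0 fell, in knockout 10 rose and 0 fell, and on average 20 rose and 2 fell. Over all genes, 1.36% rose and 1.28% fell in wild type, 2.76% and 1.70% in knockout, and 8.42% and 9.39% on average. The same shares apply to the smaller lists that follow. Their median changes were 0.12, 0.26 and 0.23, and 0 of the 81 passed the test of a genotype difference in the response. Of 22 further targets tested, 5 rose in wild type, 4 in knockout and 9 on average, Clec4e among them each time. Clec4e, a lectin receptor of myeloid cells, and Tnfsf9, the ligand of a costimulatory receptor of T cells, were called higher in both genotypes. Each lay below the array median on all 6 SB arrays and passed the filter only through VILI arrays, so no size is given for them. The counts of called genes over the 81 include both, and the knockout count also includes Tnfrsf11b, described below, so these counts were partly set by the filter. Clec4e read 1.87 to 4.11 in SB and 6.15 to 8.82 after VILI. Tnfsf9 read 2.16 to 3.59 in SB, 5.82 to 6.38 in wild type VILI and 3.55 to 4.92 in knockout VILI. Pim1, a survival kinase, rose by 1.20 and 1.43, and Mmp9, a gelatinase that is also among the neutrophil markers, by 1.18 and 1.33. Sdc4, a cell surface proteoglycan, rose by 0.71 in wild type, and Socs3, a brake on cytokine receptors, by 2.36 in knockout. Both also passed on average over the genotypes, at 0.61 and 2.02.

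Of 11 further TNF family genes tested, 2 rose in wild type and 3 in knockout, Tnfsf9 among them each time. Tnfrsf12a, the receptor for the TNF relative TWEAK, rose by 2.34 in wild type and 2.73 in knockout. Tnfrsf11b, a decoy receptor, was called higher in knockout, where it read 3.74 to 4.16 in SB and 4.53 to 5.05 after VILI. It lay above the array median on 1 of the SB arrays and on the 3 knockout VILI arrays. It passed the filter only through that knockout VILI group, so no size is given for it. With Tnfsf9 and Tnfrsf11b among its calls, the knockout count of this list was partly set by the filter, as was its wild type count through Tnfsf9. Tnfsf10, a ligand that can trigger apoptosis, fell by 1.05 on average (adjusted p = 0.0156). Among 7 further Toll-like receptor genes tested, Tlr13, an endosomal sensor of bacterial ribosomal RNA, rose by 1.90 in wild type and 1.80 in knockout. Of 25 further adaptors and kinases, Map3k8, a kinase released when an NF-kB precursor is degraded, rose by 1.58 in wild type and Malt1, a protease of lymphocyte signalling, by 1.0. In knockout Tirap, the adaptor that brings Myd88 to Tlr2 and Tlr4, rose by 0.97 and Bcl10, the partner of Malt1, by 0.54. Each of these also passed on average over both genotypes, Map3k8 at 1.38, Malt1 at 0.82, Tirap at 0.88 and Bcl10 at 0.51. Of 16 further inhibitors, Nlrc3, a negative regulator of Toll-like receptor signalling, rose by 1.93 in wild type and by 1.64 on average. Sigirr, another such regulator, fell by 0.52 on average (adjusted p = 0.00782) and is named after its value was seen.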

How the data were processed

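The deposited values are log2 expression of 45101 probe sets on 12 arrays, normalized by the authors. MAS5 and GCRMA are named, with no role or version, per the submitters' processing notes. Array medians lay between 4.37 and 4.59, and no rescaling was applied. The number of arrays limits the precision, and the sources used here name no batches. After the 64 control probe sets were left out, 23082 of 45037 lay above the array's own median on at least 3 of 12 arrays. For a gene with several kept sets (5056 of 10996 genes), the set with the highest mean stood for it. Gene symbols came from the platform annotation, in which 34945 probe sets had 1 symbol, 932 several and 9160 none.

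limma 3.58.1 in R 4.3.3 fitted 1 mean per group to all 12 arrays (8 residual and 3.36 prior degrees of freedom, variance trend, two-sided tests, Benjamini-Hochberg adjustment over all genes, threshold 0.05) for 6 contrasts, after a check on simulated data. SE is the standard error of a contrast, and n is 3 per group. Probe sets of members were also tested one by one, adjusted over the 23082 sets. Groups came from sample titles. Deviations of same-numbered arrays correlated above 0.1 in all 3 pairs only between the genotypes in SB (0.231, 0.526 and 0.318). Differently numbered arrays were not compared, so these values do not show that the numbers pair arrays. Member, feedback, core, pathway and marker lists were chosen with earlier results of these data known, and no p was computed for a list. Members past the threshold, and 10 chosen by name, are given on every array where measured; other members by their changes; other pathway genes that passed, at most the 10 largest per contrast, by name. Alternatives varied scaling, filter, probe set, variance model, samples in the fit and replicate block, and left out arrays.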

Additional observations from a re-analysis of the deposited data

How the results depend on the processing

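Under all alternatives run, 0 results turned to the opposite call. The wild type count of 1 member became 5 with only the wild type arrays in the fit, 4 with a replicate block and 3 with both knockout replicate 3 arrays left out, and ranged from 0 to 6 when 1 array was left out. It was 0 without wild type SB replicate 3, wild type VILI replicate 1 or wild type VILI replicate 2, and 6 without knockout VILI replicate 1. The knockout count of 6 became 0 with only the knockout arrays in the fit (adjusted p from 0.0689 for Myd88 to 0.198 for Tnfrsf1b) and 1 with both knockout replicate 3 arrays left out. It ranged from 1 to 8 with 1 array left out: 1 without knockout SB replicate 1 or knockout VILI replicate 2, and 2 without knockout VILI replicate 3. With the mean of kept probe sets the knockout count stayed 6, but Birc3 was lost (adjusted p = 0.0786) and Nfkbia was called lower (0.0309). The average count of 11 ranged from 7 to 12 with 1 array left out, 7 being without wild type VILI replicate 2 or knockout VILI replicate 2. With the replicate block, the knockout count was 7 and the average 14, and it added calls for Bcl3 (adjusted p = 0.0147), Tnfaip2 (0.0257) and Nfkbiz (0.0488) in wild type, Relb in knockout (0.0480) and Tlr2 (0.0160), Relb (0.0202) and Nfkb2 (0.0300) on average. The cause of these shifts was not tested. The genotype and interaction counts were 0 under all alternatives run.

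Averaged calls kept in each of the 12 fits without 1 array were those of Myd88, Bcl3, Nfkbiz, Tnfaip2, Birc3, Tnfrsf1b and Cd14, and Cd14 was lost with both knockout replicate 3 arrays out (adjusted p = 0.0572). Centring arrays moved the median over all genes by at most 0.06. Deviations of same-numbered arrays correlated at -0.16 to 0.53 over all groups, and in each VILI comparison at least 1 pair lay under 0.1, so the replicate numbers were not taken to pair those arrays. Between the genotypes in SB all 3 pairs lay above 0.1 (0.231, 0.526 and 0.318), and there the count was 0 with and without the block. Precision is limited by 3 arrays a group, and members near the lower end of the scale have uncertain folds.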
